A study of Mus musculus with 6 samples.

Results

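The genes described here encode voltage-gated calcium, sodium and potassium channels and the channel proteins named with them. They were taken as all protein-coding rows of the deposited table whose symbol begins with Cacna, Cacnb or Cacng, with Scn and a digit, or with Kcn and a letter. This rule gave 95 genes of 25166 rows, of which 15330 are protein-coding. It used names only, but the table holds 0 rows without signal in all 6 libraries, so genes without any signal could not enter. The symbols also bring in proteins that are not gated by voltage, or not by voltage alone. These are inward rectifiers, two-pore-domain potassium channels, calcium- or sodium-activated potassium channels and several accessory proteins. The GENCODE annotation of GRCm38 lists 134 protein-coding genes with such symbols, and those without a row, among them Cacna1i, Kcna7, Kcne3 and Kcnj11, were not analysed here. A further 3 rows with such symbols are not protein-coding and were left out.

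Voltage-gated channels open or close when the membrane potential changes. Calcium and sodium channels let cations in and depolarise the cell, and potassium channels let potassium out and bring the potential back. In muscle fibers sodium channels carry the action potential, the L-type calcium channel senses it and triggers calcium release from the sarcoplasmic reticulum, and T-type calcium channels, which open at low voltage, are known from embryonic muscle and from myoblasts before fusion. Muscle stem cells (MuSCs) lie beneath the basal lamina of the fiber and are not themselves contractile.

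RNA-seq was done on freshly isolated MuSCs of C57BL/6 mice of 12 weeks, with 3 libraries of Sirt6mKO mice and 3 of control mice (Ctrl). SIRT6 is a nuclear protein deacetylase of the sirtuin family. In Sirt6mKO mice the Cre recombinase of the Pax7ICN allele deletes the floxed exons 4 to 6 of Sirt6 in cells that express or have expressed Pax7, which includes myofibers formed from such cells, whereas the controls are Cre-negative floxed mice in the legend of the study and wild type in the labels. Presence of Cre and loss of Sirt6 therefore cannot be told apart. Each library was made from the RNA of 100 to 200 sorted cells. The methods name sorting by integrin-a7 and CD34 or by a fluorescent reporter, and which of these applied to the 6 libraries is not given in the sources used here. Neither do the labels say that the libraries of a group came from separate mice, so p-values measure the spread between these samples only.

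The deposited value of a gene, called signal here, is its read number divided by a factor of the library and rounded. Behind the libraries lay 1267266 to 3210592 reads on genes, and 1 read was worth a signal of 0.729 to 1.79, the largest step being that of control replicate 3. Sirt6 itself had a signal of 19, 20 and 13 in Sirt6mKO and of 18, 17 and 20 in the controls, with overlapping groups and no difference past the test (log2 fold change -0.10, standard error or SE 0.29, adjusted p = 0.91 by limma-trend), and since the table gives no value per exon the labels could not be checked on it. Pax7, the defining transcription factor of MuSCs, was present in all libraries and lower in Sirt6mKO (log2 fold change -0.84, SE 0.13, adjusted p = 0.0041 by limma-trend). Control replicate 1 stood closer to the Sirt6mKO libraries than the other controls did. Among the genes past both thresholds of the next paragraph whose groups did not overlap, it was the nearest control to the Sirt6mKO libraries in 58.7% of 366 genes, ties included.

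Of the 95 channel genes, 42 had a mean signal of at least 5 over the 6 libraries and were tested. The other 53 were too low, with a mean of at most 4.5 and no single value above 13. Log2 fold changes are those of signal plus 1, Sirt6mKO over control, and a gene was called where it differed at least 2-fold with a p, adjusted by Benjamini-Hochberg over the 14227 tested genes, of at most 0.05. By this rule 4 channel genes were higher in Sirt6mKO, which is 9.52% of those tested, beside 1.57% of all tested genes. A further 4 were lower, again 9.52%, beside 1.02% of all tested genes. The higher genes were Cacna1h, Cacna1g, Cacng1 and Kcnt2, and the lower genes described here were Cacnb2, Cacna1d and Kcnab2. Cacnb2 and Kcnab2 reached the mean of 5 only through the controls, with Sirt6mKO means of 0.33 and 3.33. By the adjusted p alone the higher genes stayed at 4, beside 2.64% of all tested genes. The lower genes then numbered 5, with Kcnn3 added, which is 11.9% beside 1.88% of all tested genes. The counts moved with single libraries. Leaving out Sirt6mKO replicate 1 or 3 gave 2 higher and 3 lower channel genes, and leaving out replicate 2 gave 1 and 2. Leaving out control replicate 1 gave 6 higher and 5 lower channel genes, and leaving out control replicate 2 gave 2 and 2. Every Sirt6mKO library lay above every control library in 9 tested channel genes, or 21.4%, beside 11.1% of all tested genes. Every Sirt6mKO library lay below every control library in 6, or 14.3%, beside 10.1% of all tested genes. Groups of 3 against 3 that do not overlap give a single gene an exact permutation p of 0.1, and no smaller p can be had.

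**Figure D1:**
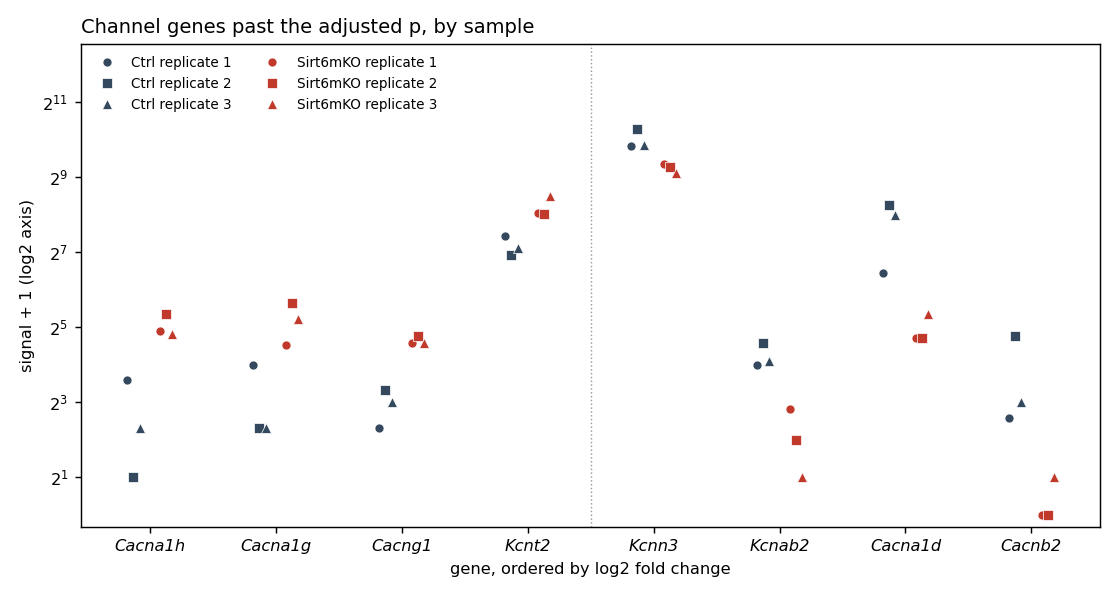
Signal plus 1 on a log2 axis for 8 of the 9 channel genes past the adjusted p, with controls in dark blue and Sirt6mKO in red and 1 symbol per replicate number. The groups are separate in all 8 genes drawn, and control replicate 1 is the control nearest to the Sirt6mKO libraries in 7 of them, all but Cacng1.

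Over the 42 tested channel genes the log2 fold change was above 0 in 27 and below 0 in 15. Its median was 0.26, beside 0.0019 over all tested genes, and it was 0.11 without control replicate 2 and -0.16 over the 11 channel genes whose signal averaged 50 or more. An unadjusted p of at most 0.05 was reached by 16 of the 42 channel genes and by 2577 of the 14227 genes. The summed signal of the 95 genes was 3062, 3162 and 3110 in Sirt6mKO replicates 1, 2 and 3 against 3464, 3753 and 3386 in the controls, so the groups did not overlap. The most abundant genes by signal were Kcnn3 and Kcnma1. Without them the sums were 1802 to 1931 in Sirt6mKO and 1751 to 1821 in the controls, and the groups overlapped.

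**Figure D2:**
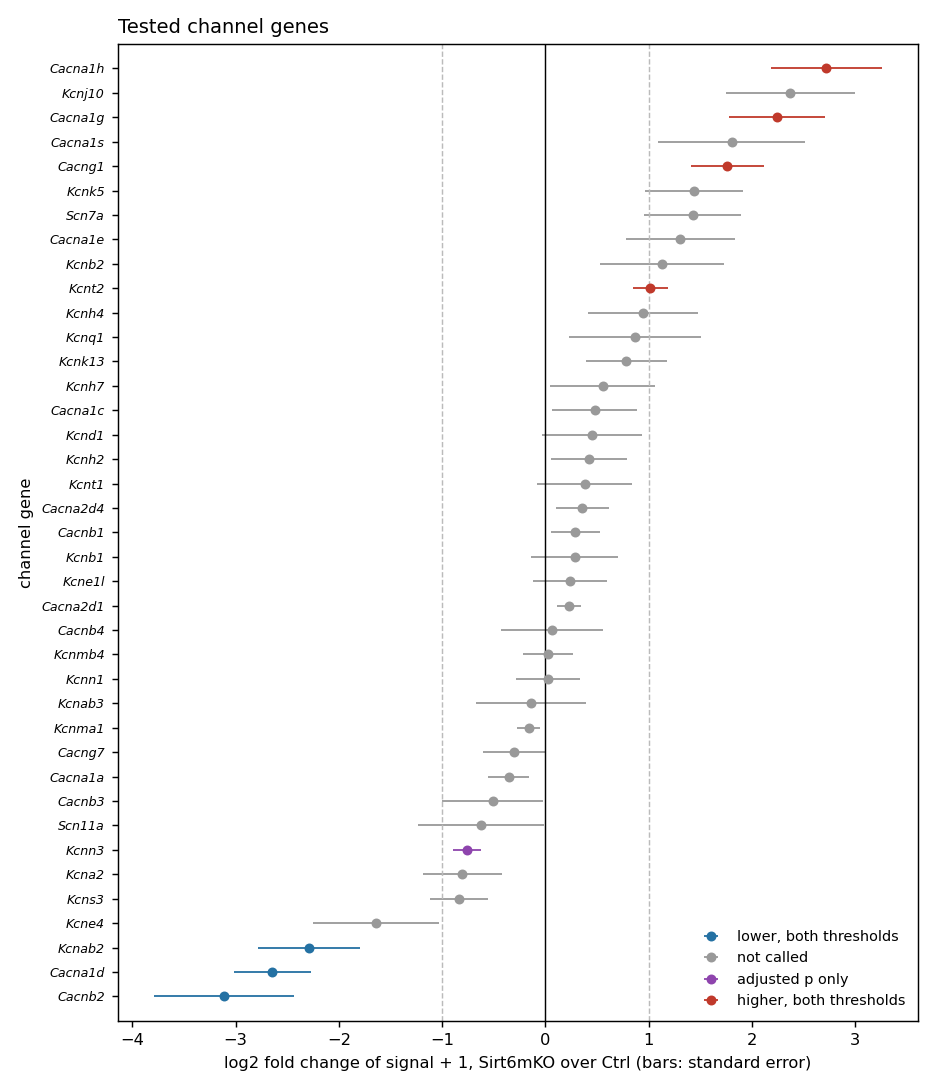
Log2 fold changes of signal plus 1 for 39 of the 42 tested channel genes, Sirt6mKO over control, with bars of 1 standard error and dashed lines at a fold change of 2. Red marks the 4 higher genes, blue 3 lower genes and purple Kcnn3, which passed the adjusted p only. Several grey genes lie as far from 0 as the called ones, with longer bars.

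The pore-forming subunits of calcium channels changed in both directions. Both tested T-type subunits were higher in Sirt6mKO, and the L-type subunit Cacna1d, the calcium channel pore with the highest mean signal in the controls, was lower. In control replicate 1 alone Cacna1a had more signal than Cacna1d, 96 against 86. In bulk samples a change in RNA per cell cannot be told apart from a change in the number of cells that carry the RNA.

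Cacna1h (ENSMUSG00000024112, GRCm38 chr17:25374285-25433783, minus strand) encodes the T-type pore Cav3.2. Its signal was 29, 40 and 27 in Sirt6mKO replicates 1, 2 and 3 against 11, 1 and 4 in control replicates 1, 2 and 3. All Sirt6mKO libraries stood above all controls, with control replicate 1 the highest of the controls. The means were 32 ± 7 (SD, n = 3) and 5.33 ± 5.13 (SD, n = 3). The log2 fold change was 2.72 (SE 0.54, adjusted p = 0.013 by limma-trend). It rested on 35, 54 and 29 reads in Sirt6mKO and on 9, 1 and 2 reads in the controls. Without Sirt6mKO replicate 1 the adjusted p was 0.077 and without Sirt6mKO replicate 2 it was 0.092, at log2 fold changes of 2.78 and 2.55, so these fits no longer called the gene. It shares 158 exon bases with Tpsg1 on the other strand.

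Cacna1g (ENSMUSG00000020866, chr11:94408391-94474198, minus strand) encodes the T-type pore Cav3.1. The signal was 22, 49 and 36 in Sirt6mKO against 15, 4 and 4 in the controls. Here too control replicate 1 was the highest control, and the groups were separate. The log2 fold change was 2.24 (SE 0.47, adjusted p = 0.017 by limma-trend). The adjusted p was 0.12 without Sirt6mKO replicate 2, 0.059 without Sirt6mKO replicate 3 and 0.070 without control replicate 2.

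Cacna1d (ENSMUSG00000015968, chr14:30039939-30491455, minus strand) encodes the L-type pore Cav1.3, which opens at lower voltages than the cardiac L-type channel. Its signal was 25, 25 and 40 in Sirt6mKO against 86, 303 and 255 in the controls. Every control stood above every Sirt6mKO library, and control replicate 1 was the lowest control. The means were 30.0 ± 8.66 and 214.67 ± 113.98 (SD, n = 3 per group), with a log2 fold change of -2.64 (SE 0.38, adjusted p = 0.0019 by limma-trend). The gene was called whichever library was left out, between -3.20 and -2.30. It shares 589 exon bases with Chdh on the other strand, which had a signal of 7, 11 and 17 in Sirt6mKO against 7, 4 and 7 in the controls.

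The remaining pores of this family did not pass the test. Cacna1s, the voltage sensor of skeletal muscle fibers, had 28, 43 and 4 in Sirt6mKO against 4, 9 and 2 in the controls. Its Sirt6mKO replicate 3 lay within the controls, and at a log2 fold change of 1.80 (SE 0.71) the adjusted p was 0.20 by limma-trend. Without Sirt6mKO replicate 3 its adjusted p was 0.016, at 2.75. Cacna1c, the L-type pore of heart and smooth muscle, was low, at 8 to 11 in Sirt6mKO and 5 to 9 in the controls. Cacna1f, the retinal L-type pore, had at most 2 in any library. Of the pores of the P/Q, N and R types, Cacna1a was the most abundant, with 55 to 76 in Sirt6mKO and 68 to 100 in the controls (log2 fold change -0.35, adjusted p = 0.38 by limma-trend). Cacna1e had 12, 20 and 19 against 14, 7 and 2, with a log2 fold change of 1.31 (adjusted p = 0.21 by limma-trend), and Cacna1b had at most 4.

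To set pores of different length beside each other, signal was divided by the summed exon length of the gene in kilobases. Cacna1d then held 34.4, 67.9 and 72.7% of the summed Cacna1 signal per kilobase in control replicates 1, 2 and 3. In the Sirt6mKO libraries its share was 10.5, 7.79 and 19.5%. Cacna1h held 5.68, 0.29 and 1.47% in the controls and 15.8, 16.1 and 17.0% in Sirt6mKO, and Cacna1g held 7.47, 1.12 and 1.42% against 11.5, 19 and 21.9%. The largest share in every Sirt6mKO library was that of Cacna1a, at 34.42, 26.16 and 29.65%, against 42.42, 24.77 and 21.42% in the controls. Cacna1s, which counts among the L-type pores, held 22.7, 25.8 and 3.76% in Sirt6mKO against 3.08, 3.89 and 1.10% in the controls. The ratio of T-type to L-type signal per kilobase was 0.332, 0.019 and 0.038 in the controls and 0.775, 0.985 and 1.52 in Sirt6mKO. Every Sirt6mKO library stood above every control in this ratio, and control replicate 1 lay between the other controls and the Sirt6mKO libraries. These shares restate the values of the genes above and were not tested on their own.

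**Figure D3:**
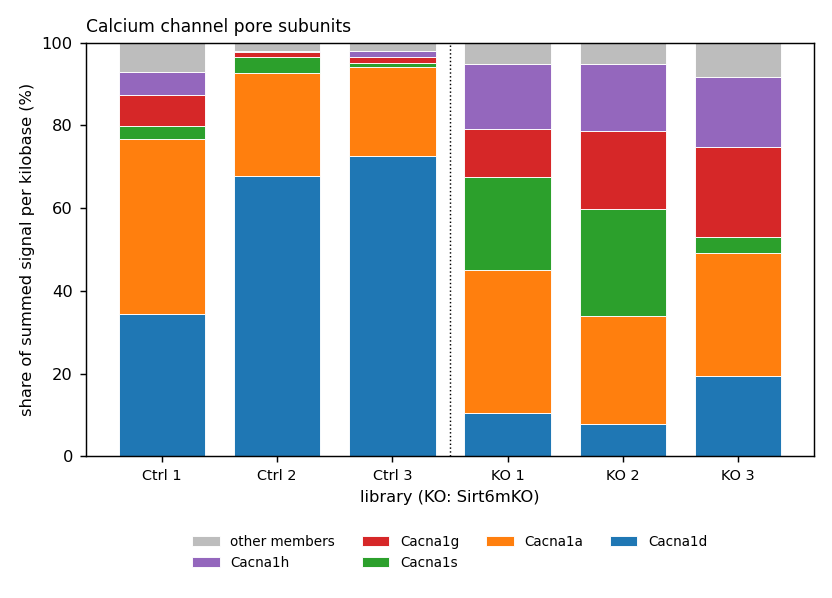
Share of the summed signal per kilobase held by each pore subunit, in percent, for the calcium channels, with 1 bar per library and the controls before the Sirt6mKO libraries (KO). Cacna1d holds over 60% of the family in control replicates 2 and 3 and under 20% in the Sirt6mKO libraries, with control replicate 1 in between.

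For 5 of the 9 channel genes past the adjusted p, RefSeq sequences of 300 bases around a start site (250 before it and 50 from it on, build GRCm38.p6) were at hand, and none was used for Cacna1h, Cacna1g or Cacng1. Of these windows 3 are shown because their genes passed both thresholds with all libraries and the adjusted p in every fit that left out a library: 2 start sites of Cacna1d and the start site of Kcnt2, a higher gene described further on. Capitals mark matches to common promoter motifs, read on either strand, and overlapping matches run together. The motifs searched were the E-box with the letters CAGCTG and the AP-1 site with the letters TGANTCA. The GC box was searched as GGGCGG and the TATA box of many regulated promoters as TATAAA. The CCAAT box, which the nuclear factor Y complex binds, was searched by its own letters. The cyclic AMP response element (CRE) was searched as TGACGTCA.
Cacna1d upstream start, chr14:30491107-30491406, minus strand: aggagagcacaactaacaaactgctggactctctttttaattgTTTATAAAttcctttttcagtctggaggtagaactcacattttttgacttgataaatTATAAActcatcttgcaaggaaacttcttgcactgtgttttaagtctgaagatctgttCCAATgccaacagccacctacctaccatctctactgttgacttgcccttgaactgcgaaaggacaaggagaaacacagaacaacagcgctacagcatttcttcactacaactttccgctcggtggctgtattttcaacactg
Cacna1d downstream start, chr14:30353437-30353736, minus strand: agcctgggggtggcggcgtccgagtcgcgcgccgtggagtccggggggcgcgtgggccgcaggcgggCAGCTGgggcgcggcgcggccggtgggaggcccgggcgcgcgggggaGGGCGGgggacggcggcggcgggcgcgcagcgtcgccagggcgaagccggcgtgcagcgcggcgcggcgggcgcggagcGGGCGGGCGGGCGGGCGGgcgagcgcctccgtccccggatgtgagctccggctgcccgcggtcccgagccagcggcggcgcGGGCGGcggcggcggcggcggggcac
Kcnt2, chr1:140245468-140245767, plus strand: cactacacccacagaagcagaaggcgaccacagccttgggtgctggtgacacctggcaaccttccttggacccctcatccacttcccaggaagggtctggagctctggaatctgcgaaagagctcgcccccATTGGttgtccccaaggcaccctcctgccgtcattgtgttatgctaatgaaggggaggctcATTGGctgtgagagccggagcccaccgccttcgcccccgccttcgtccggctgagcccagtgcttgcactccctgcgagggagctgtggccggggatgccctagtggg
The start sites of Cacna1d differed in base composition, with 40.3% G and C upstream and 87.3% downstream, beside a median of 52.7% over all 32851 windows. The upstream window held 3 TATA box matches, 2 of them overlapping, and 1 CCAAT box. The downstream window held 6 GC boxes, 4 of them in 1 run, and 1 E-box. In the Kcnt2 window the letters of the CCAAT box occurred at 2 places, both on the other strand. Over all windows a TATA box match was found in 13.6%, a GC box in 35.7%, a CCAAT box in 37.4%, an E-box in 16.3%, an AP-1 site in 7.81% and a CRE in 1.79%. Over the 95 windows of the 70 channel genes that have any, these shares were 6.32, 48.4, 29.5, 28.4, 2.11 and 0%. The table gives 1 value per gene, so which start site was in use was not tested.

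Accessory calcium channel subunits bind the pore and set its traffic to the membrane and its gating. Among them Cacnb2 fell and Cacng1 rose, and the alpha2delta subunits did not pass the test.

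Cacng1 (ENSMUSG00000020722, chr11:107703218-107716522, minus strand) encodes the gamma subunit of the L-type channel of skeletal muscle. It had 23, 26 and 23 in Sirt6mKO against 4, 9 and 7 in the controls. The Sirt6mKO libraries lay close together and above all controls. The log2 fold change was 1.76 (SE 0.35, adjusted p = 0.014 by limma-trend). Leaving out Sirt6mKO replicate 1, 2 or 3 raised the adjusted p to 0.078, 0.091 and 0.051, while the log2 fold change stayed between 1.48 and 1.98 in all fits without 1 library. The other gamma genes belong to the AMPA receptor regulators or are little known. Cacng7 had 14 to 17 in Sirt6mKO and 14 to 25 in the controls (log2 fold change -0.30, adjusted p = 0.67 by limma-trend), and Cacng4, Cacng5 and Cacng6 had at most 7.

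Cacnb2 (ENSMUSG00000057914, chr2:14603088-14987908, plus strand) encodes the cytoplasmic beta subunit best known from the heart. Its signal was 0, 0 and 1 in Sirt6mKO against 5, 26 and 7 in the controls. All Sirt6mKO libraries were at or under 3 reads, and control replicate 2 stood far above the other controls. With the Sirt6mKO libraries set to a floor of 3 reads each, the gene was at least 5.02-fold lower, a limit that covers counting error only and was 2.38-fold without control replicate 2. Cacnb2 reached the minimum mean of 5 only through the controls, with means of 0.33 in Sirt6mKO and 12.7 in the controls. The fits without 1 library kept the genes selected on all libraries. The adjusted p of its fit was 0.021 by limma-trend, and it was 0.095 without Sirt6mKO replicate 1, 0.088 without Sirt6mKO replicate 2 and 0.11 without control replicate 2. Its exons overlap Gm10849, Gm10848 and Gm13269 on the other strand.

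Cacnb1, the beta subunit of the skeletal muscle channel, was the most abundant beta gene, at 37, 37 and 29 in Sirt6mKO against 32, 23 and 29 in the controls, and the groups overlapped. It held 80.3 to 84.0% of the beta signal per kilobase in Sirt6mKO and 59.8 to 73.3% in the controls. Cacnb3 had 4 in each Sirt6mKO library and 4 to 11 in the controls, and Cacnb4 had 3 to 9 and 4 to 6. Of the alpha2delta genes, which encode extracellular subunits, Cacna2d1 had 289, 306 and 314 against 287, 242 and 247. Its groups were separate by a signal of 2, and the log2 fold change of 0.23 did not pass (SE 0.12, adjusted p = 0.33 by limma-trend). Cacna2d4 had 83 to 102 in Sirt6mKO and 43 to 99 in the controls, while Cacna2d2 and Cacna2d3 had at most 5.

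Of the 4 genes of the L-type complex of skeletal muscle, Cacna1s, Cacna2d1, Cacnb1 and Cacng1, only Cacng1 passed the test. The summed signal of 19 myofiber markers was 3331, 3475 and 1694 in Sirt6mKO replicates 1, 2 and 3 and 1424 to 1787 in the controls. Sirt6mKO replicates 1 and 2 were high for both these markers and Cacna1s, and replicate 3 lay within the controls for both. Cacng1 was as high in replicate 3 as in replicate 1. Of the 18 tested myofiber markers 2 were higher, namely Acta1, skeletal muscle actin, and Mylpf, a fast myosin light chain, and their log2 fold changes were 1.71 and 2.15 (adjusted p = 0.035 and 0.018 by limma-trend). An unadjusted p of at most 0.05 was reached by 13 of the 18, and voom called 0. None of the myofiber markers was at 0 in any library, and their part in the values of Cacna1s and Cacng1 was not tested.

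**Figure D4:**
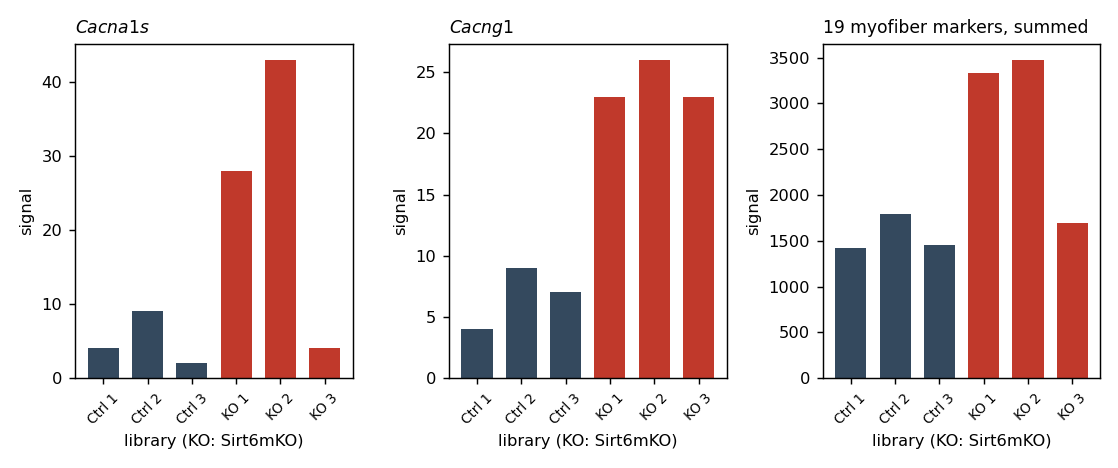
Signal of Cacna1s, of Cacng1 and of 19 myofiber markers summed, with 1 bar per library, controls in dark blue and Sirt6mKO (KO) in red, and vertical axes that start at 0. Cacna1s and the myofiber markers are high in Sirt6mKO replicates 1 and 2 and not in replicate 3, whereas Cacng1 is at 23 to 26 in all 3.

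Of the sodium channel pores, Scn7a encodes Nax, a channel of this family that responds to the sodium level more than to voltage. It had 240, 235 and 267 in Sirt6mKO against 264, 39 and 73 in the controls. Control replicate 1 was as high as the Sirt6mKO libraries, and the groups overlapped. The log2 fold change of 1.43 (SE 0.47) had an adjusted p of 0.12 by limma-trend. Without control replicate 1 it was 2.19, with an adjusted p of 0.00034. Scn7a is also known from Schwann cells and stood in the list of their markers, of which 11 were in the table and 0 of 7 tested were called by limma-trend or voom, with 3 at an unadjusted p of at most 0.05, namely Scn7a, Ngfr and Cnp. Without Scn7a the markers' summed signal was 525, 568 and 629 in Sirt6mKO against 597, 636 and 630 in the controls, with overlapping groups and the lower mean in Sirt6mKO, and with Scn7a it was 765 to 896 and 675 to 861. Most of the sum without Scn7a was Pmp22, at 412, 398 and 451 in Sirt6mKO against 422, 405 and 437 in the controls. The marker S100b was at most 1 in every library.

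Scn11a, a pore of sensory neurons, had 13, 6 and 7 in Sirt6mKO against 4, 37 and 14 in the controls, without a difference beyond the spread (log2 fold change -0.62, adjusted p = 0.66 by limma-trend). Scn4a, the pore that carries the action potential of adult skeletal muscle, was too low to test, at 3, 8 and 2 against 1, 3 and 2. Scn1a, Scn2a, Scn8a and Scn9a, pores of neurons, had at most 6 in any library. Scn2a was above its controls in every Sirt6mKO library, with 3, 5 and 6 against 0, 1 and 2. Of the beta subunits, which tether the pore and tune its gating, Scn2b, Scn3b and Scn4b had at most 4.

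The potassium channels opened by calcium or sodium inside the cell were among the most abundant members. Kcnn3 fell modestly, Kcnt2 rose 2-fold, and Kcnma1 did not pass the test.

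Kcnn3 (ENSMUSG00000000794, chr3:89520164-89675132, plus strand) encodes the small-conductance calcium-activated channel SK3. It had 646, 620 and 547 in Sirt6mKO against 915, 1247 and 929 in the controls. The groups were separate, with means of 604.33 ± 51.33 and 1030.3 ± 187.77 (SD, n = 3 per group). This gave a log2 fold change of -0.76 (SE 0.13, adjusted p = 0.0068 by limma-trend), short of the 2-fold threshold, and the adjusted p was at most 0.038 whichever library was left out.

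Kcnt2 (ENSMUSG00000052726, chr1:140246158-140612067, plus strand) encodes the sodium-activated channel Slick. Its signal was 261, 257 and 358 in Sirt6mKO against 173, 120 and 138 in the controls. No library of either group reached into the other. Its log2 fold change was 1.02 (SE 0.17, adjusted p = 0.0047 by limma-trend). It lies close to the threshold of 2-fold, and was 0.86 without Sirt6mKO replicate 3, 0.90 without control replicate 2 and 0.997 without control replicate 3, with an adjusted p of at most 0.026 in these and the other fits without 1 library. Its window with the CCAAT box letters was shown above, and its exons share 102 bases with 4930590L20Rik on the other strand.

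Kcnma1 encodes the pore of the large-conductance BK channel. It had 614, 663 and 632 in Sirt6mKO against 798, 708 and 636 in the controls, and control replicate 3 lay among the Sirt6mKO libraries. On the log2 scale the difference was -0.16 (SE 0.11, adjusted p = 0.51 by limma-trend). Its neuronal regulatory subunit Kcnmb4 had 28, 32 and 36 against 26, 30 and 39, with a log2 fold change of 0.03 (SE 0.24). Kcnn1, which encodes SK1, had 15 to 28 and 17 to 26, and Kcnt1, the paralog of Kcnt2 that encodes Slack, had 7 to 17 and 5 to 14.

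Of the 27 pores of the voltage-gated potassium channels proper, 10 were tested and 0 were called by limma-trend or by voom, with 1 at an unadjusted p of at most 0.05 (Kcns3) and log2 fold changes above 0 in 7 and below 0 in 3. Kcns3, a silent subunit that modifies other pores, had 13, 16 and 20 against 37, 26 and 27. Its groups did not overlap, and the log2 fold change of -0.84 had an adjusted p of 0.12 by limma-trend. Kcna2 had 7, 19 and 12 against 30, 16 and 20, with a log2 fold change of -0.80 (adjusted p = 0.30 by limma-trend). Kcnh4 stood at 7 in each Sirt6mKO library and at 5, 1 and 5 in the controls (log2 fold change 0.94, adjusted p = 0.39 by limma-trend), and Kcnb2 at 14, 16 and 16 against 22, 2 and 5. Among the untested pores Kcnq5 had 0, 1 and 1 in Sirt6mKO against 4, 6 and 2 in the controls, Kcnv2 2, 3 and 2 against 0, 1 and 0, and Kcnc4 1 in each Sirt6mKO library against 0 in each control.

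Among the accessory potassium channel proteins Kcnab2 fell. Kcnab2 (ENSMUSG00000028931, chr4:152390742-152477910, minus strand) encodes a cytoplasmic beta subunit of the Kv1 channels. It had 6, 3 and 1 in Sirt6mKO against 15, 23 and 16 in the controls, so that all controls stood above all Sirt6mKO libraries. The fitted log2 fold change was -2.29 (SE 0.49, adjusted p = 0.020 by limma-trend), on 7, 4 and 1 reads in Sirt6mKO against 12, 32 and 9 in the controls. The adjusted p was 0.077 without Sirt6mKO replicate 2, 0.052 without Sirt6mKO replicate 3 and 0.092 without control replicate 2. Kcnab3 had 4 to 5 in Sirt6mKO and 2 to 9 in the controls, and Kcnab1 had at most 2.

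Kcne4, a single-span subunit that inhibits several Kv channels, had 5, 6 and 6 in Sirt6mKO against 5, 37 and 38 in the controls. Control replicate 1 lay with the Sirt6mKO libraries. The log2 fold change of -1.64 (SE 0.61) had an adjusted p of 0.17 by limma-trend, which was 0.0021 without control replicate 1, at -2.53. Kcne1l, named in the table as such, had 10, 10 and 11 against 10, 9 and 7. Kcne2, Kcnip2, Kcnmb3 and Kcnrg had at most 4.

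Inward rectifiers and two-pore-domain channels carry the resting potassium conductance. They were low in all libraries, with 1 of 10 inward rectifiers and 2 of 8 two-pore-domain genes tested. Neither limma-trend nor voom called any of these 3, and Kcnj10 and Kcnk5 had an unadjusted p of at most 0.05. Kcnj10, which encodes the glial channel Kir4.1, had 14, 10 and 20 in Sirt6mKO against 0, 4 and 4 in the controls. The groups were separate, and at a log2 fold change of 2.37 (SE 0.62) the adjusted p was 0.052 by limma-trend, the smallest among the channel genes that were not called. The side of the threshold depended on the fit. Kcnj10 passed without control replicate 3 (adjusted p = 0.042) but in none of the other 5 fits that left out a library, and it passed in 6 of the 11 other alternative fits, with an adjusted p of 0.025 to 0.14 over these 11. Kcnj2 and Kcnj12, the rectifiers of muscle fibers, had at most 5 and at most 2, and Kcnj8, the ATP-sensitive channel pore of mural cells, had 3 to 5 in Sirt6mKO and 0 to 6 in the controls. Kcnk5, an acid-sensitive leak channel, had 20, 16 and 14 in Sirt6mKO against 2, 8 and 9 in the controls. Its groups did not overlap, and the log2 fold change of 1.44 had an adjusted p of 0.12 by limma-trend. Kcnk13 had 12, 8 and 10 against 6, 5 and 5 (log2 fold change 0.78, adjusted p = 0.32 by limma-trend), and Kcnk2, a mechanosensitive leak channel, had at most 3.

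Levels per kilobase order the channel genes within the control MuSCs. Kcnn3 led at 98.59 ± 17.97 (SD, n = 3). Of the genes described here, Kcnma1 followed at 42.06 ± 4.78 and Kcnt2 at 20.84 ± 3.91. Cacna2d1, Scn7a and Cacna1d came next, between 20.83 and 17.01, and then Kcne4 at 10.04. Among neighbours in this order of 12 genes, the ranges over the 3 controls were separate only between Kcnn3 and Kcnma1 and between Kcnma1 and Kcnt2. All other neighbours overlapped, so their order is not fixed by these libraries. Cacna1g stood at place 47 and Cacna1h at place 54 of 95 in the controls, with 0.756 and 0.546 per kilobase, and in Sirt6mKO they reached 3.52 and 3.28 per kilobase, beside 2.38 for Cacna1d.

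**Figure D5:**
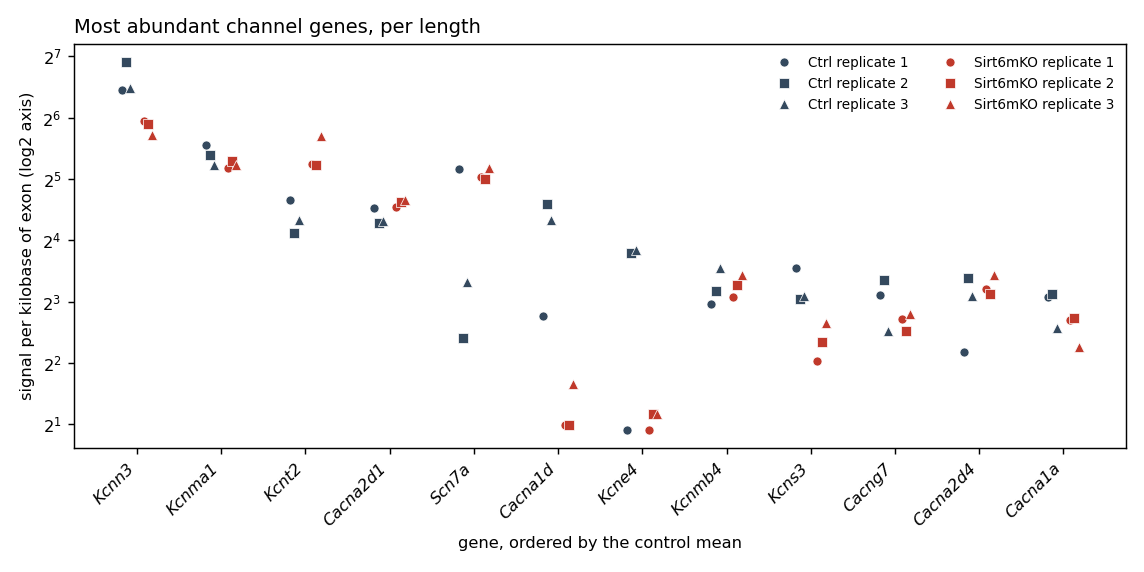
Signal per kilobase of summed exon length, on a log2 axis, for the 12 channel genes that are highest in the controls among those described here, with controls in dark blue, Sirt6mKO in red and 1 symbol per replicate number. Kcnn3 leads, the groups are separate in Kcnn3, Kcnt2, Cacna2d1, Cacna1d and Kcns3, and control replicate 1 of Scn7a and Kcne4 lies with the Sirt6mKO libraries.

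Other genes of excitability were read from 3 lists, which together held 124 genes, 110 of them in the table and 74 tested. By both thresholds 5 were higher and 1 was lower, beside 1.57% and 1.02% of all tested genes, and the median log2 fold change was 0.04. By the adjusted p alone 9 were higher and 6 lower, beside 2.64% and 1.88%. The single lower gene among 74 is near the background share. Without Sirt6mKO replicate 1, and likewise without replicate 2, 0 of the excitability genes were called in either direction, and without control replicate 1 the calls were 8 and 3. Of the genes of excitation and calcium release 3 of 27 tested were higher. They were Casq1, the calcium-binding calsequestrin of the sarcoplasmic reticulum (log2 fold change 1.43, adjusted p = 0.024), Sln, which encodes the calcium pump inhibitor sarcolipin (2.99, adjusted p = 0.012), and Trdn, the junctional protein triadin. The signal of Trdn was 23, 19 and 6 in Sirt6mKO against 4, 1 and 0 in the controls, which were at or under 3 reads, so that it was at least 4.26-fold higher by a floor of 3 reads per library (adjusted p = 0.033 by limma-trend). Trdn and Sln reached the minimum mean of 5 only through Sirt6mKO, each with a control mean of 1.67.

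Of the other cation channels 1 of 22 tested was higher, Trpm3, a heat-activated calcium-permeable channel, with 290, 260 and 235 in Sirt6mKO against 181, 25 and 23 in the controls. Control replicate 1 lay between the groups. This gave a log2 fold change of 2.43 (adjusted p = 0.028 by limma-trend). Among 25 tested channel partner proteins Sntb1, a syntrophin of the dystrophin complex, was higher, with 195, 157 and 143 against 106, 70 and 48 (log2 fold change 1.19, adjusted p = 0.014 by limma-trend). Dpp6, an accessory protein of the Kv4 channels, was lower, with 4, 6 and 6 against 9, 29 and 34 (log2 fold change -1.81, adjusted p = 0.049 by limma-trend).

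Markers of other cells and of dissociation moved in part with the groups. Of 10 tested fibroblast markers 3 were higher by limma-trend, Col1a1, Col1a2 and Pdgfra, and 8 had an unadjusted p of at most 0.05. The log2 fold change was above 0 in all 10. The list summed to 12844 to 14774 in Sirt6mKO and 8883 to 13402 in the controls. The largest part of this sum was Col3a1, at 7236, 6685 and 8461 in Sirt6mKO against 8595, 7237 and 5795 in the controls, which was not called. Ly6a, Pi16, Mfap5 and Cd248 were at most 4 in every library. The 8 tenocyte markers, of which 0 passed both thresholds and 5 had an unadjusted p of at most 0.05, summed to 296, 1514 and 703 in Sirt6mKO and 156 to 254 in the controls. Of their defining genes, Tnmd was at 1, 19 and 13 and Kera at 0, 40 and 15 in Sirt6mKO replicates 1, 2 and 3. Each was at 1, 0 and 0 in control replicates 1, 2 and 3. Endothelial markers summed to 400 to 472 and 486 to 586, with 0 of 4 tested called, 1 at an unadjusted p of at most 0.05 and Cldn5 at most 1. Most of this sum was Tek, at 349, 412 and 367 in Sirt6mKO against 454, 562 and 430 in the controls. The log2 fold change was above 0 in 3 of the 4 tested endothelial markers, all but Tek. Mural cell markers summed to 4433 to 5515 and 2935 to 3971, with 0 of 8 tested called by limma-trend and 1 by voom, and 3 at an unadjusted p of at most 0.05. Most of this sum was Notch3, at 4104, 4873 and 3688 in Sirt6mKO against 3289, 2967 and 2112 in the controls. Of the 8 tested mural markers, 4 had a log2 fold change above 0. Immune markers were low, at 44 to 83 and 44 to 76, with 0 of 2 tested called, 0 at an unadjusted p of at most 0.05 and Csf1r at most 3. MuSC markers summed to 17791 to 19418 and 19911 to 22196, with 1 of 15 tested lower, Chrdl2, a BMP-binding protein (log2 fold change -1.10, adjusted p = 0.0021 by limma-trend). In this sum Pax7 was at 1841, 2307 and 1810 in Sirt6mKO against 4066, 3449 and 3150 in the controls. By the adjusted p alone Pax7 and Chrdl2 were lower and Cd34 was higher (log2 fold change 0.60, adjusted p = 0.031 by limma-trend). The log2 fold change was above 0 in 6 of the 15. Immediate early genes, which respond within minutes to dissociation among other stimuli, summed to 16919 to 19626 in Sirt6mKO and 10468 to 12994 in the controls, with 3 of 18 tested higher by both thresholds, Arc, Egr2 and Ier3. By the adjusted p alone 8 of the 18 were higher, and 15 had an unadjusted p of at most 0.05. The part of any of these lists in the channel values was not tested.

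Of the 95 channel genes 32 share exon bases with another gene, 30 of them with a gene on the opposite strand. By the methods of the study, reads that overlapped several genes were not counted. The labels and the methods name different library kits, and whether strand was used in counting is not stated. How many reads the shared bases lost is therefore not known.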

How the data were processed

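The 6 libraries were analysed, 3 of Sirt6mKO and 3 of control MuSCs, grouped by their labels. The authors trimmed and aligned the reads to mm10, counted them per gene and scaled them, and the submitters' processing notes name Trimmomatic 0.39, STAR 2.7.10a, featureCounts 2.0.2 and DESeq2 1.30.1. The deposited signal is a whole number without a stated unit. Gaps between occupied values show reads divided by 1 factor per library and rounded, with recovered factors of 0.558 to 1.37. A test for counts was therefore not used. Instead limma-trend (limma 3.58.1, R 4.3.3) was run on log2(signal + 1) without covariates, for the 14227 genes with a mean of at least 5, and p-values were adjusted by Benjamini-Hochberg over these. The procedure was tested on simulated data.

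Exon lengths and overlaps came from GENCODE M21. Named genes are those past the adjusted p, the 10 highest per kilobase in controls, the 5 largest and 5 smallest fold changes among separate groups, members fixed by role, and genes of other lists past both thresholds. Further members complete each family, and Chdh and single markers of other cells were named after their values were seen. Channel genes and lists were chosen with earlier results of these data known. Alternatives changed the scaling, the minimum mean, the pseudocount, the variance model, the threshold, the replicate block or 1 library at a time. Intervals and floors cover counting error only. Some genes that the rule names enter the counts and sums but are not reported here.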

Additional observations from a re-analysis of the deposited data

How the results depend on the processing

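Among the channel genes, Cacna1d was called in every fit, and Kcnn3 and Kcnt2 had an adjusted p of at most 0.05 in every fit. With 1 library left out, the higher channel genes numbered 1 to 6 and the lower ones 2 to 5, and among all genes the counts ran from 97 to 291 higher and 84 to 152 lower. Cacna1h then had log2 fold changes of 2.07 to 3.36 with an adjusted p of up to 0.092, and its adjusted p was at most 0.029 in the 11 other fits. The other excitability genes numbered 0 to 8 higher and 0 to 3 lower. Sirt6 lay between -0.21 and 0.087, turning above 0 without Sirt6mKO replicate 3.

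A mean signal of at least 50 left 11 channel genes, of which 1 was higher (Kcnt2) and 2 were lower, with 76 and 52 of all genes and 2 and 0 of the excitability genes. An adjusted p of at most 0.01 left 1 and 2 channel genes, 93 and 77 of all genes, and 0 and 0 of the excitability genes. Without a minimum fold change these were 376 and 267 of all genes and 9 and 6 of the excitability genes. Without a filter, and likewise at a pseudocount of 0.1, the excitability genes were 3 and 0. The upper quartile scaling and voom on recovered reads each gave 0 lower excitability genes.

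Deviations of same-numbered libraries correlated at 0.0235, 0.0663 and 0.188, and those of differently numbered libraries at -0.129 to 0.073. Whether the replicate numbers pair the libraries cannot be decided from so few values. With the replicate block 7 channel genes were higher, with Cacna1s, Kcnj10 and Scn7a added, and 4 lower. The cause of these shifts was not tested. Depth limits the rarer channel genes, whose values rest on few reads.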
